A study of Homo sapiens with 12 samples.

Results

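Aminoacyl-tRNA synthetases are the enzymes that join each amino acid to its own transfer RNA. The genes described here were taken by symbol: all 35 genes on a list of cytosolic and mitochondrial synthetases were found among the 60617 genes of the deposited tables. Of these, 19 encode the enzymes of the cytosol and 16 those imported into mitochondria, and GARS1 and KARS1, counted as cytosolic, encode both forms. The measurements are RNA sequencing of A549 cells, an established human lung adenocarcinoma line, 24 hours after siRNA transfection. The groups were a control siRNA (siCo) and 2 combinations of siRNAs against YAP1 and WWTR1, the genes of YAP and TAZ, written siYAP/TAZ#1 and siYAP/TAZ#2. Every group had 4 libraries, which the series describes as biological replicates, and all of them were transfected cells of the same line.

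Charged transfer RNAs feed the ribosome, so every translating cell needs a synthetase for each amino acid. Mitochondria translate their own small genome and use a separate, nuclear-encoded set, most of whose genes carry the suffix 2. Several cytosolic enzymes sit together in the multisynthetase complex, held by the scaffold proteins AIMP1, AIMP2 and EEF1E1, and many cytosolic synthetase genes respond to amino acid shortage through the transcription factor ATF4. YAP and TAZ are coactivators that the Hippo kinases restrain and that act mainly through TEAD transcription factors.

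Library totals ran from 29617111 to 38264296 estimated counts, and the synthetase genes took 0.257% to 0.298% of them. The lowest estimated count of any synthetase gene in any library was 163, for PARS2, so no statement below rests on counts near 0. The siRNAs removed most of their target transcripts, with YAP1 left at 15.5% and 14.3% of siCo and WWTR1 at 13.7% and 13.5% (two-sided exact permutation test over 4 against 4 libraries, p = 0.0286 each, the smallest that design can give). Markers of the line were expressed, with KRT8 at 2383 CPM in siCo. Of the 8 line markers, 5 were called higher with siYAP/TAZ#1, and 6 higher and 1 lower with siYAP/TAZ#2. Their median log2 changes were 0.40 and 0.36, and 16.4% and 19% of all genes were called higher. Markers of other cell types, summed over each list, ran as follows in siCo, siYAP/TAZ#1 and siYAP/TAZ#2. The 7 alveolar type 2 markers gave 124 to 130.3, 148 to 167 and 153 to 186 CPM, nearly all from ABCA3, with SFTPA1 at 0 in every library and SFTPC at most 6 counts. Of these, 4 passed the filter and 2 were called higher with each combination. The 5 fibroblast markers gave 104 to 116, 140.3 to 171 and 102 to 156 CPM, nearly all from COL1A1, and of the 4 that passed the filter 1 was called higher, with siYAP/TAZ#1. The 5 leukocyte markers gave 23.8 to 27.1, 20.1 to 24.0 and 21.7 to 27.4 CPM, nearly all from CD68, with CD3E at most 1 count, and the 4 endothelial markers 0.414 to 0.643, 0.54 to 1.16 and 0.382 to 1.04 CPM. Of the leukocyte and endothelial markers 2 and 1 passed the filter. The part of these markers in the results was not tested. Replicate 1 of siYAP/TAZ#2 stood apart from the rest of its group, with correlations of log2 CPM of 0.973 to 0.979 against 0.985 to 0.986 among the other libraries of that group, and results that rest on it are given with and without it.

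Levels are in CPM, a gene's count relative to its library's total after TMM scaling, which brings the trimmed mean of gene-wise ratios between libraries to 1. Changes are log2 values ± standard error from edgeR's quasi-likelihood test over 21581 genes, and a gene was called lower or higher at a Benjamini-Hochberg adjusted p under 0.05. Both comparisons with siCo use the same 4 siCo libraries, so they are not independent of each other. In bulk RNA fewer cells and less RNA per cell cannot be told apart.

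Upstream sequence is shown for MARS2, EARS2, IARS1, AARS1 and YARS2, the genes in which an E-box or a C/EBP-ATF core, described below, was found. RefSeq's promoter table (GRCh38.p14) had an entry for 30 of the 35 genes, all but LARS1, VARS1, YARS1, AARS2 and VARS2. The 250 bases before each start were searched on both strands for 3 motifs: CACGTG, the E-box bound by MYC and related factors; TGATGNAA, the core of the C/EBP-ATF response element through which ATF4 acts; and GGAATG, the core bound by TEAD factors. The sequences below run 5′ to 3′ on the strand of the gene, and capitals mark the motif.
MARS2, chr2:197705269-197705368, plus strand, E-box: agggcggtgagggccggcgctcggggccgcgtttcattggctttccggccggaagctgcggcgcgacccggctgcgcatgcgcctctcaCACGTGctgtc
EARS2, chr16:23557351-23557380, minus strand, E-box: acgcagggagaagccCACGTGtgctattcc
IARS1, chr9:92293798-92293947, minus strand, E-box: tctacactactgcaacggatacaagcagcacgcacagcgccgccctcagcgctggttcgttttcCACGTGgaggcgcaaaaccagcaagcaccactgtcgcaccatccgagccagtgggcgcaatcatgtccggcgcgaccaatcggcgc
IARS1, chr9:92293698-92293727, minus strand, C/EBP-ATF core: cccgcattttcagcgcgTTGCATCAcctcc
AARS1, chr16:70289675-70289704, minus strand, C/EBP-ATF core: ttttctcgcagTTGCATCAgccaagttaga
YARS2, chr12:32756066-32756095, minus strand, C/EBP-ATF core: cTGATGGAAaaattaagtttaagggaacgt

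In MARS2 and EARS2 the E-box lay 11 to 6 and 15 to 10 bases before the RefSeq start, and in IARS1 it lay 186 to 181 bases before it. An E-box was found in 3 of the 30 windows (10%), against 6.49% of all 27305 promoters in the table. MARS2, EARS2 and IARS1 were all called lower with both combinations, as were 12 of the 30 genes with a window. A link between the motif and the change was not tested. The C/EBP-ATF core was found in AARS1, IARS1 and YARS2 (10%, against 3.19% of all promoters). In IARS1 and AARS1 it was read on the strand opposite to the gene, 13 to 6 and 187 to 180 bases before the start, and in YARS2 on the strand of the gene, 197 to 190 bases before it. The TEAD core was in none of the 30 windows and in 11.9% of all promoters, which says only that these letters are not in the 250 bases searched. In GENCODE v29 the MARS2 stretch lies between exons of the gene AC011997.1 on the same strand, and the longer IARS1 stretch and the YARS2 site lie in no annotated gene. The EARS2 site falls in a 5′ UTR exon of EARS2 and partly in one of UBFD1 on the other strand. The shorter IARS1 stretch falls in a 5′ UTR exon of IARS1, and the AARS1 site in an exon of DDX19B on the other strand. No binding was measured in these data.

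Levels in control cells come first. Per transcript length, in the TPM values the authors deposited, cytosolic genes were expressed more highly than mitochondrial ones: the median over the 19 cytosolic genes was 29.4 TPM in siCo and over the 16 mitochondrial genes 7.38 TPM. GARS1, which charges glycine in both compartments, was highest at 64.3 TPM, followed by IARS1 (isoleucine) at 53.9, MARS1 (methionine) at 51.2 and KARS1 (lysine, both compartments) at 50.4 TPM. PARS2, the mitochondrial prolyl-tRNA synthetase, was lowest at 1.72 TPM, 37.5-fold below GARS1. Among the 10 highest genes 9 were cytosolic, and the exception was EARS2, which loads glutamate in mitochondria and stood eighth at 41.5 TPM. Among the 10 lowest, 9 were mitochondrial, and the exception was FARSB, the beta subunit of the cytosolic phenylalanine enzyme, at 4.20 TPM, although FARSA, which encodes the alpha subunit, stood at 41.1 TPM. In CPM, which does not divide by length, FARSB averaged 47.7 and FARSA 110, so this gap depends on the lengths used. Many neighbours in this order were not separated: only 10 of 34 neighbouring pairs kept their order in all 4 siCo libraries, among them GARS1 above IARS1, TARS2 above VARS2 and WARS2 above PARS2.

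**Figure D1:**
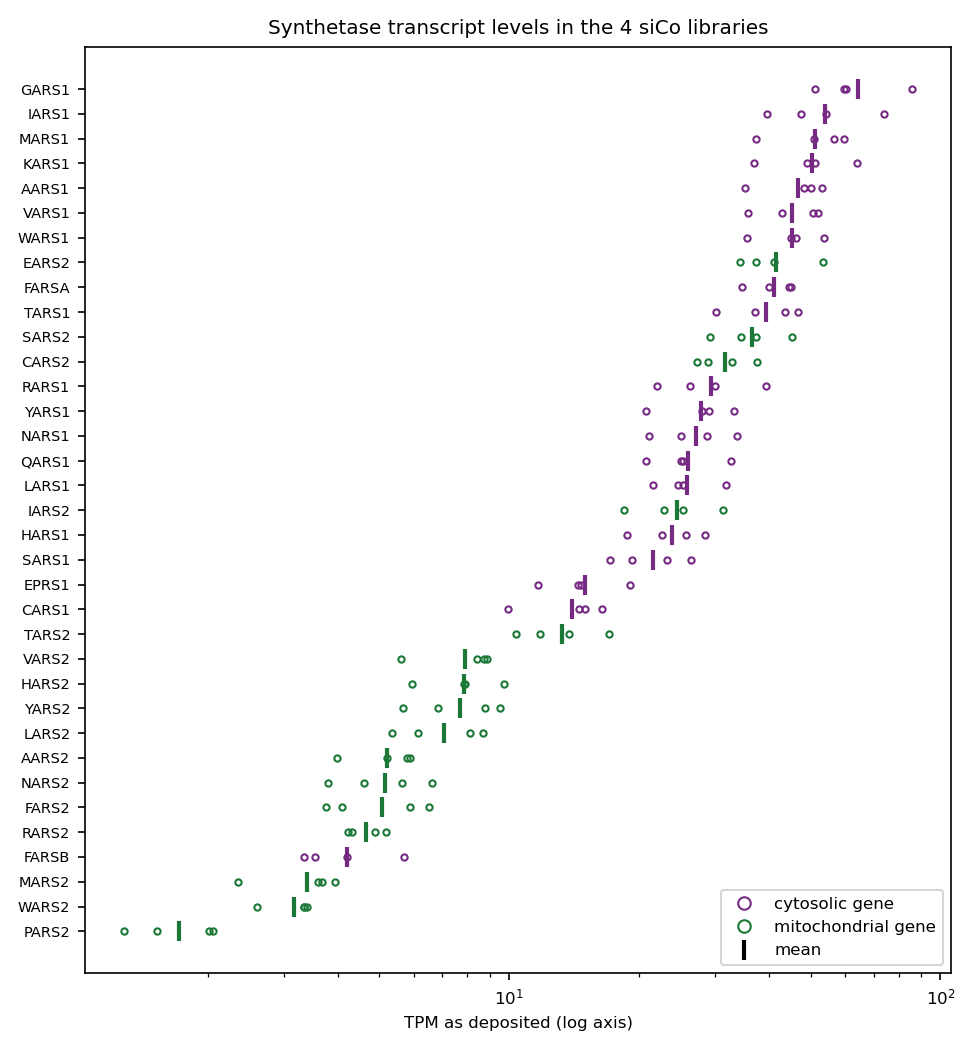
TPM of the 35 synthetase genes in siCo on a log axis, with 1 open circle per library (n = 4), a bar at the mean, purple for cytosolic and green for mitochondrial genes. The cytosolic genes fill the upper part, from GARS1 at 64.3 TPM downward, with EARS2 among them, and FARSB sits among the mitochondrial genes at 4.20 TPM.

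With TMM scaling, transcripts of many synthetases were lower in cells depleted of YAP and TAZ, by modest amounts, and 1 gene was higher. All 35 genes passed the filter on low counts. With siYAP/TAZ#1, 20 of them fell and 2 rose, where 18.5% of all genes tested were called lower and 16.4% higher (34.9% in either direction). With siYAP/TAZ#2, 16 fell and 3 rose, beside 19.2% of all genes lower and 19% higher (38.2% in all). With both combinations 15 genes (42.9%) were called lower, against 13.3% of all genes tested, and 1 gene (2.86%) was called higher, against 12.5%. Abundant coding genes were called more often, so that the share lower with both was 24.2% among the 10974 protein-coding genes with a mean of at least 5 CPM. The genes called lower with both were FARSA, FARSB, GARS1, IARS1, KARS1, LARS1, MARS1, TARS1, VARS1 and YARS1 in the cytosol and EARS2, LARS2, MARS2, NARS2 and YARS2 in mitochondria. QARS1 was the gene called higher with both, no gene was called in opposite directions, and no log2 change reached 1.

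These counts depend on how the libraries are scaled. Over all genes tested the median change was 0.02 with each combination under TMM and 0.20 and 0.21 when libraries were scaled by their totals alone. Of all genes, 3999 were called lower and 3531 higher with siYAP/TAZ#1 under TMM, against 1905 and 5876 under library totals alone, and 4144 and 4100 with siYAP/TAZ#2, against 2037 and 6538. Upper quartile scaling gave 2791 lower and 4928 higher, and 2913 and 5430. In TPM, limma gave 138 lower and 1310 higher, and 172 and 2731, and after median centring 2716 and 1627, and 3197 and 1940. The cytosolic median was -0.25 with siYAP/TAZ#1 and -0.19 with siYAP/TAZ#2 under TMM and -0.07 and 0.00 under library totals alone, and turned positive, to 0.06 and 0.23, in TPM. Measured from the median of all genes, the cytosolic median was lower by TMM (-0.27 and -0.21), by library totals alone (-0.27 and -0.20) and in TPM (-0.19 and -0.08). The mitochondrial median was -0.20 and -0.09 under TMM, which is -0.22 and -0.11 from the median of all genes. With siYAP/TAZ#2 in TPM it stood 0.02 above that median. Protein-coding genes with a mean of at least 5 CPM had medians of -0.089 and -0.078 under TMM. The mitochondrial median with siYAP/TAZ#2 was close to theirs. Library totals alone left 3 genes called lower with both combinations, FARSA, YARS1 and MARS2, and 7 called higher with both: QARS1, AARS1, FARS2, HARS2, PARS2, TARS2 and VARS2. In TPM, where the small RNA gene MIR3648-2 took 4.80% to 19.7% of a library, none of the 35 was called lower by limma with either combination (0 also at an unadjusted p under 0.05).

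**Figure D2:**
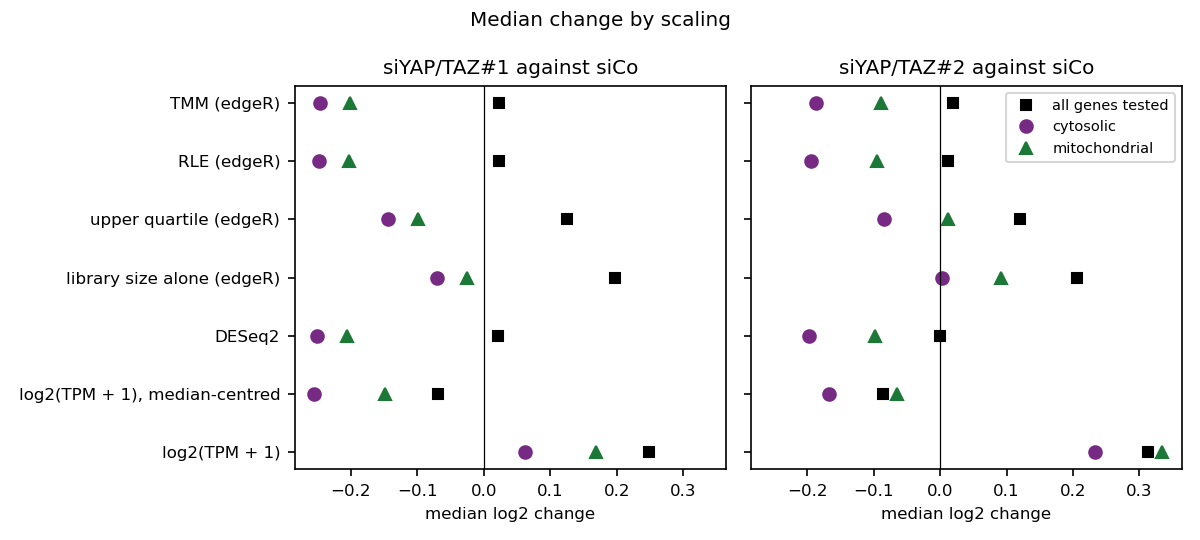
Median log2 change of the 19 cytosolic genes (circles), the 16 mitochondrial genes (triangles) and all genes tested (squares) for each combination against siCo, under 7 ways of scaling and testing. The circles lie to the left of the squares in every row, and the triangle does so in every row except TPM and median-centred TPM with siYAP/TAZ#2.

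Among the 19 cytosolic genes, 13 fell and 2 rose with siYAP/TAZ#1, and 10 fell and 1 rose with siYAP/TAZ#2. Of all genes 18.5% and 19.2% were called lower and 16.4% and 19% higher. Of abundant coding genes the shares were 33.3% and 33.4% lower and 17.9% and 21.1% higher. The tyrosine enzyme changed most. YARS1 (chromosome 1, 32775237 to 32818153, minus strand) measured 109, 117, 111 and 115 CPM in siCo, 77.9, 72.8, 75.7 and 76.9 CPM with siYAP/TAZ#1, and 72.4, 72.1, 73.4 and 73.5 CPM with siYAP/TAZ#2. All 8 treated libraries lay well below the 4 siCo libraries. The log2 changes were -0.57 ± 0.05 (adjusted p = 1.83e-07) and -0.63 ± 0.05 (adjusted p = 5.08e-08 by edgeR), which left 67.1% and 64.5%.

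Phenylalanine is loaded by an enzyme of 2 kinds of subunit, encoded by FARSA and FARSB. FARSA (chromosome 19, 12922479 to 12934037, minus strand) measured 112, 112, 117 and 99.4 CPM in siCo, 79.1, 82.2, 76.1 and 67.8 CPM with siYAP/TAZ#1, and 101, 69.7, 74.3 and 68.9 CPM with siYAP/TAZ#2. Only the first siYAP/TAZ#2 library reached the siCo range. The changes were -0.53 ± 0.10 and -0.49 ± 0.10 (adjusted p = 0.000847 and 0.00142 by edgeR), and the second was -0.62 ± 0.06 without that library. FARSB gave 45.1, 42.7, 49.2 and 53.9 CPM in siCo, 37.6, 32.2, 34.9 and 39.9 CPM with siYAP/TAZ#1, and 29.3, 38.5, 39.4 and 39.4 CPM with siYAP/TAZ#2. In FARSB the same library was the lowest of all, and both treated groups lay below siCo while overlapping each other. Its changes of -0.40 ± 0.10 and -0.38 ± 0.10 were close to those of FARSA, and the second was -0.28 ± 0.08 without replicate 1 (adjusted p = 0.00652).

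The multisynthetase complex holds 7 of the cytosolic enzymes on this list: EPRS1, IARS1, KARS1, LARS1, MARS1, QARS1 and RARS1. With siYAP/TAZ#1 5 of them fell and 1 rose, and with siYAP/TAZ#2 4 fell and 1 rose. Of the 12 cytosolic genes outside the complex, 8 fell and 1 rose with the first combination and 6 fell with the second. Beside both sets, 18.5% and 19.2% of all genes and 33.3% and 33.4% of abundant coding genes were called lower. KARS1 showed 141, 152, 139.8 and 154 CPM in siCo, 109, 115, 113 and 119 CPM with siYAP/TAZ#1, and 105, 114, 118 and 112 CPM with siYAP/TAZ#2. Every treated library was below every siCo library, and the changes were -0.36 ± 0.06 and -0.39 ± 0.06 (adjusted p = 0.000101 and 4.7e-05 by edgeR).

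IARS1, whose upstream DNA is printed above, had 308, 328, 311 and 346 CPM in siCo, 249, 244, 246 and 270.4 CPM with siYAP/TAZ#1, and 216, 266, 261 and 259 CPM with siYAP/TAZ#2. Its changes were -0.36 ± 0.07 and -0.37 ± 0.07, with replicate 1 of siYAP/TAZ#2 again the lowest, and the second was -0.30 ± 0.05 without it. MARS1 varied little within groups, at 163, 166, 157 and 161 CPM in siCo, 136, 136, 128 and 132 CPM with siYAP/TAZ#1, and 127, 130.3, 132 and 133 CPM with siYAP/TAZ#2. That is a change of -0.28 ± 0.05 and -0.31 ± 0.05, with a gap between siCo and all 8 treated libraries. MARS1 overlaps DDIT3 and ARHGAP9 on the other strand, and 10.5% of the 31-base words of its transcripts also occur in transcripts of other genes, so part of its reads may have been shared among genes in the authors' counting. The same limit holds for other genes with such shares, among them TARS2 (9.78%), YARS1 (9.07%) and EARS2 (7.65%).

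The glutamine enzyme of the same complex moved the other way. QARS1 (chromosome 3, 49095932 to 49105135, minus strand) had 79.6, 85.8, 80.8 and 82.8 CPM in siCo, 95.5, 96.0, 90.3 and 98.6 CPM with siYAP/TAZ#1, and 99.3, 97.4, 97.8 and 90.0 CPM with siYAP/TAZ#2. All 8 treated libraries were above all 4 siCo libraries. The changes were 0.21 ± 0.05 and 0.22 ± 0.05 (adjusted p = 0.00573 and 0.00316 by edgeR). Its call held with both combinations under library totals alone, upper quartile scaling, DESeq2 and median-centred TPM. In uncentred TPM it gave 0.61 (adjusted p = 0.0829) and 0.67 (adjusted p = 0.0377 by limma). LARS1 was called lower with both, at -0.35 ± 0.07 and -0.21 ± 0.07, and the second call depended on single libraries, as given further on. RARS1 was called with siYAP/TAZ#1 only (-0.24 ± 0.08) and gave -0.04 ± 0.08 with siYAP/TAZ#2, a difference between the combinations that did not pass (adjusted p = 0.124 by edgeR). Without replicate 1 of siYAP/TAZ#2 that difference was -0.29 ± 0.06 and was called (adjusted p = 0.00148 by edgeR). EPRS1, which joins the glutamate and proline enzymes in 1 protein, was called with neither, at -0.11 ± 0.09 and 0.04 ± 0.09. With replicate 1 of siYAP/TAZ#2 left out, the second was 0.15 ± 0.06 and was called higher (adjusted p = 0.0473 by edgeR).

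Threonine and glycine enzymes were lower by less. TARS1 gave 129, 128, 126 and 129 CPM in siCo, 96.7, 98.8, 99.9 and 107 CPM with siYAP/TAZ#1, and 86.9, 111, 123 and 113 CPM with siYAP/TAZ#2. The treated groups stayed below siCo, but the second spread widely, with changes of -0.35 ± 0.08 and -0.24 ± 0.08 (-0.14 ± 0.05 without replicate 1, adjusted p = 0.0233 by edgeR). GARS1 was at 148, 163, 168 and 173 CPM in siCo, 137, 137, 136 and 139.6 CPM with siYAP/TAZ#1, and 136, 146, 144 and 147 CPM with siYAP/TAZ#2, changes of -0.25 ± 0.06 and -0.19 ± 0.06. The lowest siCo library lay just above the highest treated one. VARS1, the valine enzyme, was close to the threshold at -0.24 ± 0.09 and -0.23 ± 0.09 (adjusted p = 0.042 and 0.0453 by edgeR), and replicate 1 of siYAP/TAZ#2 exceeded all siCo libraries at 241 CPM. Without that library the changes were -0.24 ± 0.05 and -0.34 ± 0.05 (adjusted p = 0.000358 and 2.31e-05 by edgeR). HARS1 (-0.21 ± 0.05) and NARS1 (-0.40 ± 0.07) fell with siYAP/TAZ#1, while with siYAP/TAZ#2 they gave -0.12 ± 0.05 and -0.17 ± 0.07, which did not pass. CARS1, SARS1 and WARS1, for cysteine, serine and tryptophan, were called with neither combination, within -0.13 to 0.07.

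**Figure D3:**
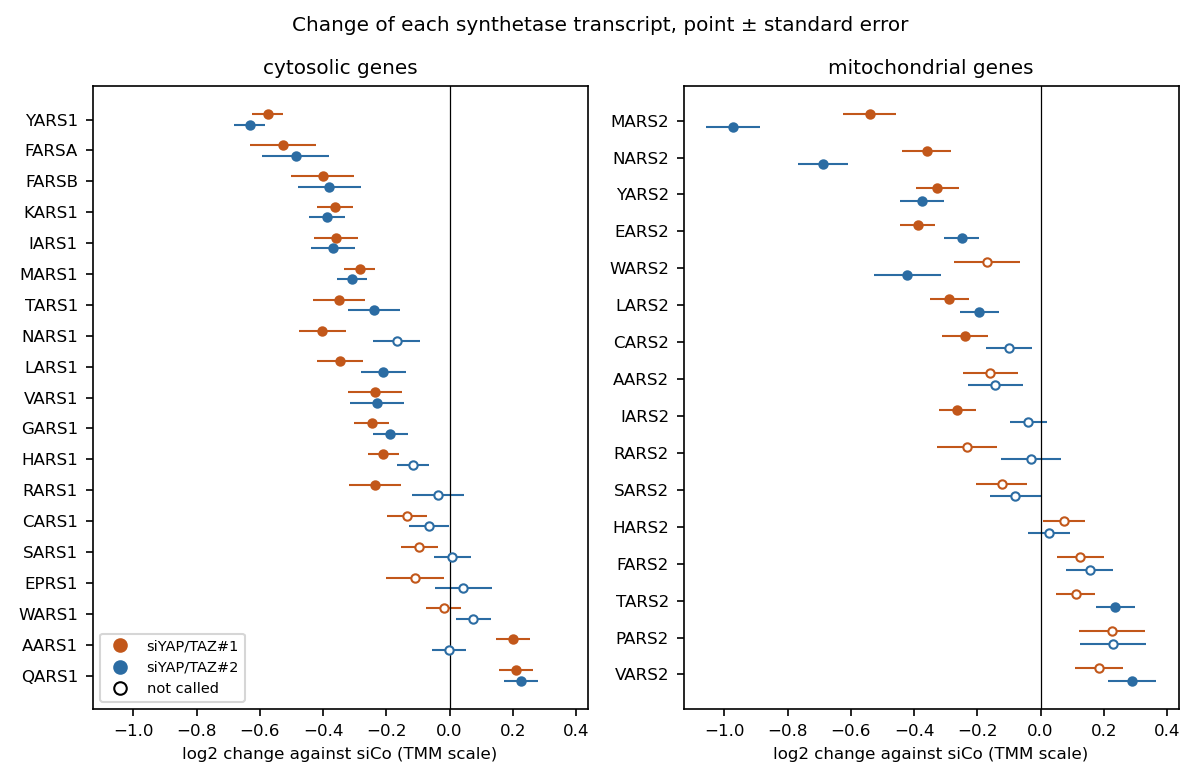
Log2 change against siCo of every synthetase gene under TMM scaling, with the standard error as a bar. Orange is siYAP/TAZ#1 and blue is siYAP/TAZ#2, filled points were called and white points were not. YARS1 and MARS2 lie farthest to the left in their panels, and QARS1 is the only gene filled to the right of 0 with both combinations.

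The mitochondrial enzymes spread more widely with siYAP/TAZ#2, from -0.97 to 0.29 against -0.63 to 0.22 in the cytosol. With siYAP/TAZ#1 7 of 16 fell, and with siYAP/TAZ#2 6 fell and 2 rose. Of all genes 18.5% and 19.2% were called lower and 16.4% and 19% higher. Of abundant coding genes the shares were 33.3% and 33.4% lower and 17.9% and 21.1% higher. The mitochondrial share lower with siYAP/TAZ#2 (37.5%) was close to that of abundant coding genes. No mitochondrial gene rose with siYAP/TAZ#1 by edgeR or by DESeq2, although 2 did at an unadjusted p under 0.05 by edgeR. The methionine enzyme showed the largest change of all 35 genes with siYAP/TAZ#2. MARS2 (chromosome 2, 197705369 to 197708387, plus strand) had 16.9, 18.4, 14.8 and 15.9 CPM in siCo, 10.9, 11.7, 11.7 and 11.1 CPM with siYAP/TAZ#1, and 8.84, 7.75, 9.08 and 7.98 CPM with siYAP/TAZ#2. The 3 groups did not overlap. The changes were -0.54 ± 0.08 and -0.97 ± 0.08 (adjusted p = 8.32e-05 and 1.76e-07 by edgeR), which left 68.7% and 50.9%.

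NARS2 (chromosome 11, 78435961 to 78574874, minus strand), for asparagine, gave 17.6, 18.4, 17.8 and 19.001 CPM in siCo, 14.2, 14.3, 13.8 and 14.5 CPM with siYAP/TAZ#1, and 9.76, 12.8, 11.4 and 11.2 CPM with siYAP/TAZ#2. Here too the 3 groups were apart, with siYAP/TAZ#2 lowest, and the changes were -0.36 ± 0.08 and -0.69 ± 0.08. YARS2, the tyrosine enzyme, had 26.6, 23.6, 23.8 and 24.6 CPM in siCo, 18.3, 19.6, 19.8 and 20.9 CPM with siYAP/TAZ#1, and 18.4, 19.8, 19.98 and 17.9 CPM with siYAP/TAZ#2. It fell alike with both, by 0.33 and 0.37 on the log2 scale (SE 0.07 each).

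EARS2 was at 87.5, 84.1, 88.3 and 87.0 CPM in siCo, 66.3, 66.7, 67.7 and 64.4 CPM with siYAP/TAZ#1, and 79.6, 71.8, 72.3 and 68.2 CPM with siYAP/TAZ#2. Its treated libraries were all below siCo, and those of siYAP/TAZ#1 all below those of siYAP/TAZ#2, a difference of -0.14 ± 0.06 that did not pass (adjusted p = 0.114 by edgeR). The changes were -0.39 ± 0.06 and -0.25 ± 0.06. LARS2, the leucine enzyme, gave 43.4, 42.8, 44.8 and 46.3 CPM in siCo, 34.6, 37.9, 34.9 and 37.9 CPM with siYAP/TAZ#1, and 35.7, 39.1, 40.1 and 40.3 CPM with siYAP/TAZ#2. Both treated groups lay below siCo and overlapped each other, with changes of -0.29 ± 0.06 and -0.19 ± 0.06.

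The mitochondrial genes called higher were those for threonine and valine, with siYAP/TAZ#2. TARS2 had 35.2, 35.7, 33.3 and 34.1 CPM in siCo, 37.0, 39.2, 34.1 and 39.2 CPM with siYAP/TAZ#1, and 42.4, 39.9, 42.1 and 38.4 CPM with siYAP/TAZ#2. All siYAP/TAZ#2 libraries were above siCo, whereas siYAP/TAZ#1 overlapped it, and the changes were 0.11 ± 0.06 (adjusted p = 0.19) and 0.24 ± 0.06 (adjusted p = 0.00641 by edgeR). VARS2 behaved similarly at 0.19 ± 0.08 (adjusted p = 0.0693) and 0.29 ± 0.08 (adjusted p = 0.006 by edgeR), but 22.9% of its 31-base words also occur in transcripts of other genes, mostly GTF2H4, so its level is uncertain. WARS2, for tryptophan, fell with siYAP/TAZ#2 (-0.42 ± 0.11) and gave -0.17 ± 0.10 with siYAP/TAZ#1. CARS2 and IARS2 fell with siYAP/TAZ#1, by 0.24 and 0.26 on the log2 scale, and gave -0.10 ± 0.07 and -0.04 ± 0.06 with siYAP/TAZ#2. AARS2, FARS2, HARS2, PARS2, RARS2 and SARS2 were called with neither, within -0.23 to 0.23. SARS2 shares 51.2% of its words, mostly with the readthrough gene AC011455.2, and is the least certain of the set.

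Replicate 1 of siYAP/TAZ#2 bears on the mitochondrial counts. Without it, 10 mitochondrial genes were called lower with siYAP/TAZ#1 and 9 with siYAP/TAZ#2, and AARS2, CARS2 and SARS2 joined those lower with both, which came to 8. In the cytosol 14 and 9 genes were then called lower, and 9 with both. Of all genes 22.3% and 22.1% were called lower in that fit, up from 18.5% and 19.2% with all 12 libraries. The share of all genes lower with both was not computed for that fit, and with all libraries it was 13.3%. YARS1, FARSA, FARSB, KARS1, IARS1, MARS1, MARS2, NARS2, EARS2 and YARS2 were called lower with both whichever of the 12 libraries was left out.

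By edgeR, 19 of the 22 calls with siYAP/TAZ#1 and 14 of the 19 with siYAP/TAZ#2 were made in all 12 fits that each left out 1 library. The others were lost in some of these fits. With siYAP/TAZ#2, GARS1 and LARS2 lost their calls without siCo replicate 4 (adjusted p = 0.0634 and 0.0682), and TARS1 lost it without any one of the 4 siCo libraries (adjusted p up to 0.0678). LARS1 lost its call with siYAP/TAZ#2 without siCo replicates 2, 3 or 4 or siYAP/TAZ#2 replicates 1 or 4 (adjusted p up to 0.125). VARS1 kept its call in 2 of 12 such fits with siYAP/TAZ#2 and in 6 of 12 with siYAP/TAZ#1 (adjusted p up to 0.132 and 0.11). With siYAP/TAZ#1, RARS1 lost its call without siCo replicates 3 or 4 or siYAP/TAZ#1 replicates 1, 2 or 3 (adjusted p up to 0.116), and CARS2 lost it without siYAP/TAZ#1 replicate 1 (adjusted p = 0.057).

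**Figure D4:**
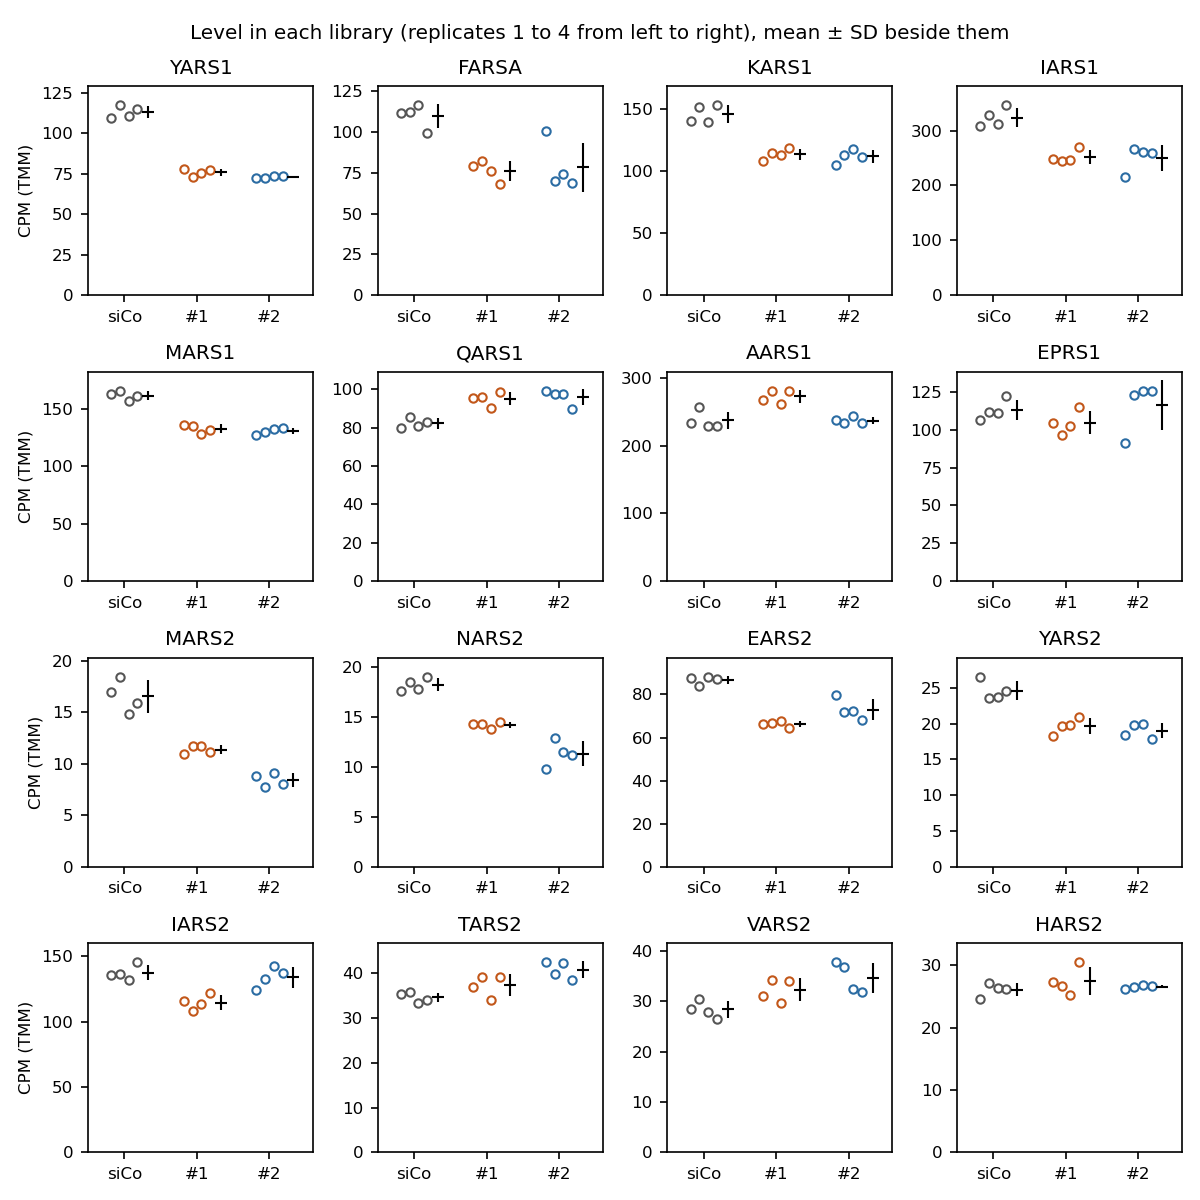
CPM of 16 synthetase genes in each of the 12 libraries, with replicates 1 to 4 from left to right in each group and the mean ± SD beside them, on axes that start at 0. YARS1, MARS2 and NARS2 show gaps between siCo and both treated groups, QARS1 lies above siCo in all 8 treated libraries, and replicate 1 of siYAP/TAZ#2 departs from its group in FARSA, IARS1 and EPRS1.

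Groups that do not overlap on the TMM scale were also counted. With siYAP/TAZ#1, 22 of the 35 genes had all 4 libraries below all 4 of siCo and 2 had all above, beside 20.7% and 18.1% of all genes tested. With siYAP/TAZ#2 these counts were 15 and 4, beside 17.7% and 16.9%. Over both combinations together, the 8 treated libraries were under every siCo library for 14 genes and over them for 1, beside 13.1% and 11.6% of all genes. By structure, 9 of 18 class I enzymes and 6 of 16 class II enzymes were called lower with both combinations. Of all genes 13.3% were called so, and of abundant coding genes 24.2%. Class I and class II are unrelated folds of the catalytic domain, and EPRS1, which holds one of each, is in neither count.

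Compared with each other, the combinations differed at 5 of the 35 genes. Of all genes tested, 15.1% differed, with 8.2% lower and 6.92% higher with siYAP/TAZ#1, so the 5 synthetases (2 lower, 3 higher) were a share close to the background. MARS2 and NARS2 were higher with siYAP/TAZ#1 than with siYAP/TAZ#2, by 0.43 ± 0.09 (adjusted p = 0.00187) and 0.33 ± 0.08 (adjusted p = 0.00875 by edgeR). AARS1 (chromosome 16, 70252295 to 70289543, minus strand), the alanine enzyme, measured 233, 256, 229 and 229 CPM in siCo, 268, 281, 261 and 280.2 CPM with siYAP/TAZ#1, and 237, 234, 243 and 233 CPM with siYAP/TAZ#2. Only siYAP/TAZ#1 stood above siCo, by 0.20 ± 0.05, and it exceeded siYAP/TAZ#2 by 0.20 ± 0.05 (adjusted p = 0.0158 by edgeR). Scaled by library totals alone, AARS1 was also called higher with siYAP/TAZ#2, at 0.19.

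IARS2 gave 136, 137, 132 and 145 CPM in siCo, 115, 108, 113 and 122 CPM with siYAP/TAZ#1, and 124, 132, 142 and 137 CPM with siYAP/TAZ#2. It was lower with siYAP/TAZ#1 than with siYAP/TAZ#2 by 0.22 on the log2 scale (SE 0.06, adjusted p = 0.0148 by edgeR), with no overlap. NARS1 had 109.9, 107, 108 and 115 CPM in siCo, 86.1, 77.1, 79.8 and 90.3 CPM with siYAP/TAZ#1, and 83.6, 102, 107 and 99.8 CPM with siYAP/TAZ#2, where the treated groups overlapped through replicate 1 (difference -0.23 ± 0.07, adjusted p = 0.0414 by edgeR). Libraries of the 2 combinations did not overlap for 2 genes lower and 4 higher with siYAP/TAZ#1, beside 9.31% and 8.93% of all genes. Without replicate 1 of siYAP/TAZ#2 the number of genes called between the combinations was 12 in place of 5. Calls over all genes also rose in that fit, to 12.8% lower and 10.3% higher from 8.2% and 6.92%. The NARS1 difference was then -0.31 ± 0.05 (adjusted p = 0.000276 by edgeR). The differences at MARS2 and NARS2 were called whichever library was left out. That at AARS1 was lost without siYAP/TAZ#1 replicates 2 or 4 or siYAP/TAZ#2 replicate 4 (adjusted p up to 0.0536 by edgeR), and that at IARS2 without siYAP/TAZ#1 replicate 2 or siYAP/TAZ#2 replicate 3 (adjusted p up to 0.0581). NARS1 kept it in 5 of 12 such fits (adjusted p up to 0.14).

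For 13 amino acids there is 1 cytosolic and 1 mitochondrial gene, and their ratio within a library is not changed by any scaling of that library. Ratios are of CPM unless TPM is named, and TPM, which also divides by transcript length, can give another ratio. The ratios moved in both directions rather than together. For threonine the log2 ratio of TARS1 to TARS2 was 1.88, 1.85, 1.92 and 1.92 in siCo, 1.39, 1.33, 1.55 and 1.45 with siYAP/TAZ#1, and 1.04, 1.48, 1.55 and 1.56 with siYAP/TAZ#2. For valine the VARS1 to VARS2 ratio was 3.02, 2.95, 3.08 and 3.03 in siCo, 2.63, 2.63, 2.68 and 2.43 with siYAP/TAZ#1, and 2.67, 2.27, 2.52 and 2.49 with siYAP/TAZ#2. In CPM both ratios were below siCo in all 8 treated libraries, so on that scale the cytosolic transcript lost ground to the mitochondrial one. In TPM the threonine ratio was likewise below siCo in all 8. The valine ratio overlapped siCo in TPM, with siYAP/TAZ#1 replicate 3 at 2.42 and siCo replicate 2 at 2.35.

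Methionine went the other way: the MARS1 to MARS2 ratio rose from 3.27, 3.17, 3.41 and 3.34 in siCo to 3.64, 3.54, 3.44 and 3.57 with siYAP/TAZ#1 and 3.85, 4.07, 3.86 and 4.06 with siYAP/TAZ#2. The 3 groups did not overlap in CPM. In TPM siYAP/TAZ#1 (3.95 to 4.20) overlapped siCo (3.82 to 4.02), and siYAP/TAZ#2 stayed above both. Alanine (AARS1 to AARS2) was above siCo with siYAP/TAZ#1, at 2.98 to 3.08 against 2.57 to 2.75, and overlapped it with siYAP/TAZ#2. Tryptophan (WARS1 to WARS2) was above siCo with siYAP/TAZ#2, at 4.01 to 4.19 against 3.47 to 3.84, and overlapped it with siYAP/TAZ#1, and asparagine did likewise (2.99 to 3.23 against 2.54 to 2.64). In TPM the asparagine ratio was below siCo with siYAP/TAZ#1, at 2.06 to 2.34 against 2.35 to 2.47. Histidine (HARS1 to HARS2) was below siCo with both, at 1.01 to 1.31 and 1.25 to 1.35 against 1.38 to 1.55, and so was isoleucine. In TPM the isoleucine ratio overlapped siCo with siYAP/TAZ#1. HARS1 and HARS2 lie head to head on opposite strands and overlap by 437 bases, and 14.9% and 12.7% of their 31-base words occur in transcripts of other genes, so their ratio is uncertain, and the sources used here do not say whether reads were stranded. In all, 4 ratios were lower and 2 higher without overlap with siYAP/TAZ#1 in CPM, and 4 lower and 3 higher with siYAP/TAZ#2. No share over pairs of other genes was computed to set beside these counts. Of single genes, 20.7% were lower and 18.1% higher without overlap with siYAP/TAZ#1, and 17.7% and 16.9% with siYAP/TAZ#2. The smallest p that an exact test of 4 against 4 libraries can give is 0.0286, and no test was made over the pairs.

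**Figure D5:**
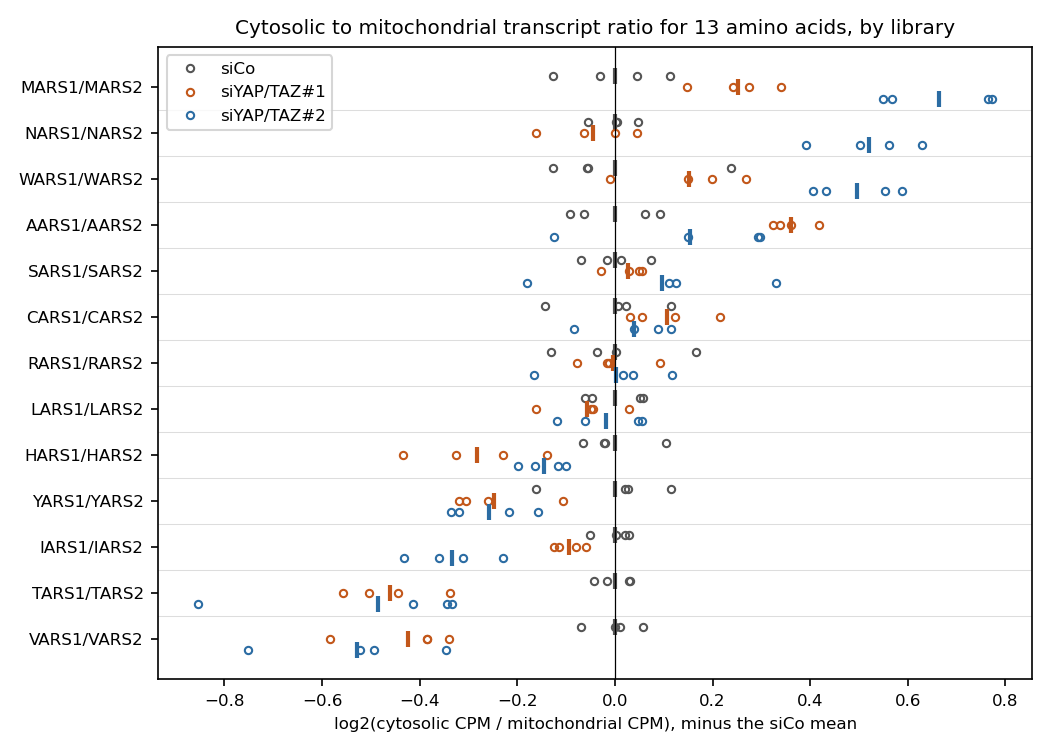
Log2 ratio of the CPM of the cytosolic to that of the mitochondrial gene in each library, minus the mean of the 4 siCo libraries, for 13 amino acids (circles are libraries, bars are group means). MARS1/MARS2 lies to the right and TARS1/TARS2 and VARS1/VARS2 to the left of siCo with both combinations, whereas LARS1/LARS2 and RARS1/RARS2 overlap it.

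Summed over genes on the TMM scale, the cytosolic enzymes took 2437 ± 55.4 CPM in siCo, 2092 ± 47.8 CPM with siYAP/TAZ#1 and 2128 ± 64.7 CPM with siYAP/TAZ#2 (SD, n = 4). The mitochondrial enzymes took 633 ± 2.93, 554 ± 14.1 and 590 ± 19.8 CPM. The ratio of the sums was 3.85 ± 0.0871 in siCo, 3.77 ± 0.0378 with siYAP/TAZ#1 and 3.61 ± 0.194 with siYAP/TAZ#2, where replicate 1 was lowest at 3.32 and the other libraries stood at 3.69 to 3.71.

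Other genes of the pathway were counted in lists. Of the 3 scaffold genes of the multisynthetase complex, AIMP2 fell (-0.35 ± 0.05 and -0.25 ± 0.05) and AIMP1 and EEF1E1 were not called. Of 13 genes for synthetase-like, editing and tRNA-dependent amino acid conversion proteins, 6 fell with each combination, beside 18.5% and 19.2% of all genes called lower and 33.3% and 33.4% of the protein-coding genes with a mean of at least 5 CPM. They include AARSD1, which removes wrongly attached amino acids (-0.33 ± 0.07 and -0.55 ± 0.07), and GATC, a subunit of the mitochondrial amidotransferase that turns the glutamate attached by EARS2 into glutamine (-0.23 ± 0.06 and -0.25 ± 0.06). MTFMT, which formylates the methionine attached by MARS2, gave -0.22 ± 0.09 (adjusted p = 0.0648) and -0.42 ± 0.09 (adjusted p = 0.00122 by edgeR).

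Of 35 genes of tRNA maturation and export, 19 fell with each combination, beside the same shares. Their median changes were -0.29 and -0.26, beside 0.02 over all genes and -0.089 and -0.078 over the protein-coding genes with a mean of at least 5 CPM. The methyltransferase NSUN2 averaged 132 CPM in control cells against 82.2 and 84.5 CPM with the combinations (-0.68 ± 0.06 and -0.64 ± 0.06). WDR4, which serves tRNA guanine methylation, changed by -0.63 ± 0.06 and -0.78 ± 0.06, and TRMT61A, the catalytic subunit of the tRNA adenine methyltransferase, by -0.71 ± 0.09 and -0.80 ± 0.09. XPOT, the export receptor for tRNA, changed by -0.58 ± 0.07 and -0.45 ± 0.07. Among 11 elongation factors, 5 fell with siYAP/TAZ#1 and 7 with siYAP/TAZ#2, where 33.3% and 33.4% of abundant coding genes were called lower, with EIF5A at -0.34 ± 0.05 and -0.41 ± 0.05 and the mitochondrial factor TSFM at -0.32 ± 0.08 and -0.37 ± 0.08.

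Of 23 amino acid response genes, 10 fell and 5 rose with siYAP/TAZ#1 and 11 fell and 5 rose with siYAP/TAZ#2, with medians of -0.01 and -0.18. Of all genes 18.5% and 19.2% were called lower and 16.4% and 19% higher, and of abundant coding genes 33.3% and 33.4% lower and 17.9% and 21.1% higher. ATF4 itself changed by -0.19 ± 0.06 and -0.65 ± 0.06. The amino acid transporters SLC7A1 (-0.68 ± 0.05 and -1.18 ± 0.05) and SLC7A5 (-0.52 ± 0.06 and -0.91 ± 0.06) fell, whereas PHGDH, the first enzyme of serine synthesis, rose (0.36 ± 0.08 and 0.61 ± 0.08). Between the combinations, 7 of the 23 were higher and 2 lower with siYAP/TAZ#1, beside 6.92% and 8.2% of all genes, while of the 19 cytosolic synthetases 1 was higher and 1 lower. Without replicate 1 of siYAP/TAZ#2, 1 cytosolic synthetase was higher and 7 lower, beside 10.3% and 12.8% of all genes. The 23 response genes were not counted without that library. Whether any of these genes bears on the synthetases was not tested.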

How the data were processed

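RNA of A549 cells was sequenced in 12 libraries. Per the labels' protocols, total RNA was extracted with a NucleoSpin RNA II kit, RNA of an integrity number above 7 was used, and sequencing was on a BGISEQ-500. Tools listed in the submitters' processing notes, without their roles, are kallisto 0.4.6 and Trim Galore 0.6.4, with the build GRCh38.p13. The sources used here do not say how transcripts were summed to genes or whether libraries were stranded. The authors deposited estimated counts per gene, unscaled, and TPM values, which are relative to transcript length and library.

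Estimated counts were rounded and fitted with edgeR 4.0.16 (R 4.3.3): filterByExpr, TMM scaling, group as the only term over all 12 libraries, quasi-likelihood F test and Benjamini-Hochberg adjustment over 21581 genes. The standard error is the absolute log2 change over the square root of F. A count of 10 was 0.261 to 0.338 CPM. The fit was tested on simulated data. Replicates of a group differed by more than sampling noise. Libraries of the same number deviated together weakly at most, with r of 0.125 to 0.182 among those of replicate 4. The replicate number was therefore not used as a block in the main fit. No source beyond the series' own description says what separates the replicates, so p-values measure the spread between these libraries.

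Genes were matched by Ensembl identifier to GENCODE v29 (58444 of 60617 identifiers) and to a table of gene names (60357), and coordinates of genes were taken from GENCODE v29 (GRCh38). Promoters are from RefSeq (GRCh38.p14). Words of 31 bases from GENCODE v29 transcripts served to find sequence shared with other genes. Values in every library are given for genes called in the same direction with both combinations without overlap, those called between the combinations, and pairs whose ratio did not overlap siCo. FARSA, TARS2 and the other genes named were chosen after their values were seen, and genes of the other lists are the first by adjusted p. The members and lists were chosen with earlier results of these data known. Alternatives were other scalings, no filter, a replicate block, only the groups compared, DESeq2 1.42.0, limma 3.58.1 on TPM with a pseudocount of 1 or 0.1, and leaving out each library.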

Additional observations from a re-analysis of the deposited data

Results flagged for a closer look

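In 10 of 105 sets of 4 libraries (35 genes in 3 groups), 1 library lay far from the others, where chance alone gives about 1 in 20, or 5.25 sets. Of these, 6 came from replicate 1 of siYAP/TAZ#2. That library was lowest for EPRS1 at 91.6 CPM against 123 to 126 in the rest of its group, for FARSB at 29.3 CPM against 38.5 to 39.4, for IARS1 at 216 CPM against 259 to 266, and for RARS1 at 65.7 CPM against 83.1 to 85.1. It was highest for FARSA at 101 CPM against 68.9 to 74.3 and for VARS1 at 241 CPM against 177 to 186. The others were SARS1 in siCo replicate 2 (52.2 CPM), CARS2 in siCo replicate 3 (74.9 CPM), AARS2 in siYAP/TAZ#1 replicate 2 (35.2 CPM) and WARS2 in siYAP/TAZ#1 replicate 4 (8.49 CPM).

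Between the combinations, edgeR called a difference for MARS2 (0.43, adjusted p = 0.00187), NARS2 (0.33, adjusted p = 0.00875), IARS2 (-0.22, adjusted p = 0.0148), AARS1 (0.20, adjusted p = 0.0158) and NARS1 (-0.23, adjusted p = 0.0414), each given as siYAP/TAZ#1 minus siYAP/TAZ#2 on the log2 scale.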

How the results depend on the processing

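Across 105 gene changes (35 genes in 3 comparisons), the call (lower, higher or none) was the same for 105 with the replicate block, 104 with DESeq2, 104 with relative log expression size factors, 99 with only the groups compared, 97 with no filter, 88 with upper quartile scaling, 86 with median-centred TPM, 64 with library totals alone and 62 with limma on TPM at either pseudocount. Libraries of the same number deviated together weakly at most (r from -0.13 to 0.18). Those of replicate 4 gave 0.125 to 0.182, and 5 of 12 libraries correlated best with one of their own number. The numbers were not taken to pair libraries. With the block 13 and 10 cytosolic and 7 and 6 mitochondrial genes were called lower, as without it. Values below give siYAP/TAZ#1 first, then siYAP/TAZ#2, where both moved. With library totals alone the cytosolic genes called lower were 2 and 3 and called higher 4 with siYAP/TAZ#2, the mitochondrial ones lower 2 and 2 and higher 5 and 5, with cytosolic medians of -0.071 and 0.0024 and mitochondrial medians of -0.026 and 0.091, and 2 genes were called between the combinations. Upper quartile scaling gave cytosolic genes lower 6 and higher 2 with siYAP/TAZ#2, mitochondrial genes higher 5 and 4, cytosolic medians of -0.14 and -0.085 and mitochondrial medians of -0.099 and 0.013. With no filter the cytosolic median with siYAP/TAZ#1 was -0.22 and 3 genes were called between the combinations. With only the 2 groups compared that median was -0.22, and 1 mitochondrial gene was called higher with siYAP/TAZ#1. Without GARS1 and KARS1 it was -0.24. Median-centred TPM gave 6 cytosolic genes lower with siYAP/TAZ#2, 3 mitochondrial genes lower and 1 higher with siYAP/TAZ#1 (median -0.15), 1 higher with siYAP/TAZ#2, and 2 between the combinations. Limma on TPM with a pseudocount of 1 or 0.1 called 0 genes lower in either compartment (0 also at an unadjusted p under 0.05 with a pseudocount of 1), 0 cytosolic genes higher with siYAP/TAZ#1 (2 at an unadjusted p under 0.05) and 0 between the combinations (0 unadjusted). Its cytosolic medians were 0.062 and 0.23 at a pseudocount of 1 and 0.063 and 0.24 at 0.1, and its mitochondrial medians 0.17 and 0.33, and 0.19 and 0.36. The cause of these shifts was not tested.

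In TPM, 41 changes against siCo had the other sign, 18 of them called in neither fit. The other 23, called in at least 1 of the fits, are given as the log2 change at a pseudocount of 1, with the value at 0.1 in brackets where it differs. With siYAP/TAZ#1 they were GARS1 0.062 (0.063), HARS1 0.15 (0.16), IARS1 0.045, LARS1 0.039, RARS1 0.071 (0.073), VARS1 0.090 (0.091), CARS2 0.11, IARS2 0.11 (0.12), LARS2 0.096 (0.11), NARS2 0.16 (0.19) and YARS2 0.17 (0.19). With siYAP/TAZ#2 they were FARSB 0.052 (0.054), GARS1 0.22 (0.23), IARS1 0.097 (0.098), KARS1 0.060 (0.061), LARS1 0.23 (0.24), MARS1 0.011, TARS1 0.19, VARS1 0.16, EARS2 0.12, LARS2 0.24 (0.27), WARS2 0.027 (0.030) and YARS2 0.060 (0.068). With library totals alone 18 had the other sign, 16 of them called in neither fit, and the others were AARS1 (0.19, called only there) and GARS1 (0.0024, called only under TMM), both with siYAP/TAZ#2.

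Leaving out 1 library at a time gave 11 to 14 and 6 to 10 cytosolic genes called lower, 2 to 2 and 1 to 2 called higher, 6 to 10 and 5 to 9 mitochondrial genes lower, 0 to 1 and 2 to 2 higher, and 2 to 12 between the combinations. The medians ranged from -0.29 to -0.24 and -0.22 to -0.14 for cytosolic genes and from -0.24 to -0.19 and -0.16 to -0.045 for mitochondrial ones. The counts that moved by over 1.5 times did so without siCo replicate 4 (6 cytosolic genes lower with siYAP/TAZ#2), without siYAP/TAZ#1 replicate 2 (2 between the combinations) or 3 (1 mitochondrial gene higher with siYAP/TAZ#1), without siYAP/TAZ#2 replicate 1 (12 between the combinations, 1 mitochondrial gene higher with siYAP/TAZ#1, 2 cytosolic genes higher with siYAP/TAZ#2) or without its replicates 3 or 4 (3 between the combinations). Without replicate 1 of siYAP/TAZ#2, 12.8% of all genes were called lower and 10.3% higher between the combinations. The mitochondrial median with siYAP/TAZ#2 was -0.16 without its replicate 1 and -0.045 without its replicate 2. Depth limits little here, since every synthetase gene had at least 163 estimated counts in each library.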
